A study of Mus musculus with 12 samples.

Results

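DNA methylation in the mouse is written by the DNA methyltransferases (Dnmt1, Dnmt3a and Dnmt3b), copied with the help of Uhrf1, read by methyl-CpG-binding domain proteins such as Mbd2, and erased by the Tet dioxygenases (Tet1, Tet2 and Tet3). Mbd3 is included as a relative of Mbd2. These 9 genes were followed here in retinal ganglion cells (RGCs) and in the remaining retinal cells of newborn mice with and without a deletion of Ezh2, the enzyme that methylates lysine 27 of histone H3. The 9 were taken by gene symbol from the 38720 rows of each of 2 deposited tables, and each was found in both. The rule used gene names and no measured values, but the set was proposed with earlier results of these data known.

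RNA was sequenced from retinas of C57/BL6 pups at P0, in 12 libraries that formed 4 groups of 3. The mKO pups carried Math5-Cre together with Ezh2 flox/flox alleles, in which loxP sites flank the exons of the catalytic SET domain, and the controls were labelled wild type (WT) with no other allele named. Retinas were dissociated with papain, RGCs were pulled out with magnetic beads carrying an antibody to CD90 (Thy-1), a surface protein of RGCs, and the cells left over formed the non-RGC fraction. Math5 is switched on in only part of the RGC lineage, and the bead separation did not distinguish cells with and without Cre, so an mKO library is a mixture of both. The paper cites a report that in adult Math5-Cre mice a far smaller share of all retinal cells than of RGCs was labelled. Cells with the deletion are thus likely the smaller part of mKO non-RGC libraries, but their share was not measured here. The triplicates came from independent RNA extractions according to the study's methods, which do not say how many pups entered each, so the p-values below measure the spread between extractions. The libraries carry no replicate number in the tables and are lettered A to C within a group from the most to the fewest reads.

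DNA methyltransferases add a methyl group to cytosines in CpG dinucleotides. Dnmt1 restores the mark on the new strand after replication and is brought there by Uhrf1, which recognizes hemimethylated CpG, whereas Dnmt3a and Dnmt3b set new marks. Tet enzymes oxidize the methyl group, after which it is lost at replication or cut out by thymine DNA glycosylase (Tdg), and Mbd2 and Mbd3 belong to alternative forms of the NuRD complex, which removes histone acetyl groups and moves nucleosomes. In the developing retina Dnmt1 and Uhrf1 are typical of dividing progenitors, while Dnmt3a remains in neurons after they leave the cell cycle.

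Reads on genes ranged from 7139633 to 13014004 per library. RGC markers (12 genes, among them Pou4f2, Sncg and Thy1) summed to between 2619 and 2766 RPM (reads scaled to the library total) in WT RGC libraries and between 513 and 539 in WT non-RGC libraries, in the order of the labels, and to between 2059 and 2130 in mKO RGC and between 608 and 814 in mKO non-RGC libraries. In mKO, 10 of the 12 were called lower in RGCs, where 21.2% of all genes were, and 8 of 12 were called higher in non-RGCs, where 4.18% of all genes were (calls as defined below). With GC and read density trends removed (below) these counts were 2 lower and 5 higher. In bulk samples such as these, fewer cells of a type and less RNA per cell cannot be told apart. WT RGC library C stood apart, with 1946 RPM over 13 cycling-cell genes and 1937 RPM over 10 retinal progenitor genes against 1103 to 1207 and 1240 to 1262 in the other WT RGC libraries. Calls that changed without it are given below with and without it. Blood genes (3 of 3) and pigment cell genes (2 of 3 tested in RGCs and 3 of 3 in non-RGCs) were called higher in mKO, where 16.3% of all genes in RGCs and 4.18% in non-RGCs were. The 3 of 3 kidney genes, with Umod and Kap at 3 reads or fewer in every mKO library, were called lower, where 21.2% and 6.43% of all genes were. Summed levels of these lists lay between 0.560 and 121 RPM. The part of these lists in the results below was not tested.

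Ezh2 itself was not lower in mKO by this measure. It had 1190, 1206 and 1678 normalized reads (reads divided by the authors' size factors) in WT RGC libraries and 1354, 1476 and 1443 in mKO RGC libraries, with a log2 fold change of 0.09 (SE 0.133, limma adjusted p = 0.637). Without WT RGC library C the change was 0.25 and was called higher (adjusted p = 0.00416). In non-RGCs it had 2115, 2149 and 1683 normalized reads in WT and 1889, 2107 and 2509 in mKO (log2 fold change 0.13, SE 0.146, adjusted p = 0.584). The counts cover every exon of the gene, of which the deleted exons are a small stretch, and therefore do not check the deletion.

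The promoter sequences of Uhrf1, Dnmt3b and Dnmt1 are shown because Uhrf1 and Dnmt3b leaned most to the non-RGC fraction (below), and Uhrf1 and Dnmt1 hold a motif of the type bound by E2F factors, which switch on genes for DNA replication. RefSeq (build GRCm38.p6) gave 13 start-site windows of 250 upstream bases for 8 of the 9 members. Each was searched on both strands for TTTCCCGC, TTTCGCGC, TTTGCCGC and TTTGGCGC. Each member window held at most 1 match, so no matches overlapped. A match was present in 1.86% of all 32851 windows in the table and in windows of Dnmt1 and Uhrf1 among the members. Capitals mark the match, and all sequences run 5′ to 3′ on the strand of the gene. For each gene the window with the most CpG was taken, so a high CpG count follows in part from that choice. The other Uhrf1 window held 10 CpG and the other Dnmt1 windows 7 and 2, all without a match. The Uhrf1 window, chr17:56304063-56304312 on the plus strand, holds 30 CpG against a median of 6 over all windows. It lies within the gene (chr17:56303321-56323486) in an intron, upstream of the second of its RefSeq starts. The Dnmt3b window, chr2:153649199-153649448 on the plus strand, holds 21 CpG and no match, and lies just upstream of the gene (chr2:153649450-153687730) within the antisense gene Dnmt3bos. Of Dnmt1 only 30 bases around the match are shown, chr9:20952824-20952853 on the minus strand, since they lie in an exon of a transcript of the gene (chr9:20907209-20959888) that starts further upstream.
Uhrf1: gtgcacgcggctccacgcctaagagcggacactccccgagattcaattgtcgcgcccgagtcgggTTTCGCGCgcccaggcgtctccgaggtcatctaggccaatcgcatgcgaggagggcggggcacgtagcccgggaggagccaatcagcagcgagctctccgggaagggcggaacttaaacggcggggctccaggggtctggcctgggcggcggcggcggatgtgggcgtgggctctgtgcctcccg
Dnmt3b: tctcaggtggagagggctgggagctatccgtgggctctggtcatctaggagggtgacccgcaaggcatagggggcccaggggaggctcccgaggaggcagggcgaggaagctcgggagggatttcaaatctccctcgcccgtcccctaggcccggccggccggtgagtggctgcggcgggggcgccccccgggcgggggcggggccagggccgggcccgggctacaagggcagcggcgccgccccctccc
Dnmt1: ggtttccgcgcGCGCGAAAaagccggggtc
The match in Uhrf1 begins 185 bases before the start site and that in Dnmt1, which is the same letters read on the other strand, 219 bases before it. Among the windows of the other members, Tet2 had the most CpG with 51, more than 99.9% of all windows.

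To compare levels between genes, reads were divided by exon length (GENCODE M21 on GRCm38, which mm10 names) and by the library total (RPKM). In WT RGCs Mbd3 had the highest level at 66.0 ± 8.45 RPKM (SD, n = 3). Dnmt1 followed at 35.6 ± 3.25, Uhrf1 at 29.3 ± 10.2, Tet3 at 21.3 ± 1.18, Mbd2 at 20.4 ± 0.979 and Dnmt3a at 19.3 ± 2.25 RPKM. Tet2 (6.17 ± 1.12), Tet1 (5.35 ± 0.340) and Dnmt3b (3.13 ± 0.824) were the lowest. Neighbours in this order overlapped between Dnmt1 and Uhrf1, among Tet3, Mbd2 and Dnmt3a, and between Tet2 and Tet1, and were separate elsewhere. Of the erasers Tet3 was the highest, and it overlapped Dnmt3a, the highest of the writers that set new marks.

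The order in WT non-RGCs was similar at the top, with Mbd3 at 77.4 ± 3.61 RPKM, but Uhrf1 at 58.5 ± 4.82 stood above Dnmt1 at 50.2 ± 4.22 without overlap. Tet3 had 30.01 ± 3.35, Mbd2 26.0 ± 2.07 and Dnmt3a 19.5 ± 0.746 RPKM. Tet2 (7.99 ± 0.590), Dnmt3b (7.88 ± 0.673) and Tet1 (7.24 ± 0.299) overlapped each other in sequence. In mKO RGCs the order was Mbd3 (45.1 ± 2.77 RPKM), Dnmt1 (29.9 ± 0.900), Uhrf1 (23.7 ± 2.53), Tet3, Dnmt3a, Mbd2, Tet1 (8.57 ± 0.741), Tet2 and Dnmt3b, and in mKO non-RGCs Mbd3 (66.3 ± 15.8) overlapped Uhrf1 (53.4 ± 6.87) and was followed by Dnmt1 (39.2 ± 1.07).

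Levels in the fractions were set side by side in RPM with no test, since each fraction has its own table with its own scaling. Dnmt3b and Uhrf1 leaned most to the non-RGC fraction, at 2.52-fold (40.2 against 16.0 RPM) and 2.00-fold (249 against 125 RPM) of the level in WT RGCs. Dnmt1, Tet3, Tet1, Tet2 and Mbd2 were between 1.28-fold and 1.41-fold higher in WT non-RGCs with no overlap between libraries. Mbd3 (1.17-fold) and Dnmt3a (1.01-fold) overlapped between the fractions. In mKO, Dnmt3b (2.19-fold), Uhrf1 (2.25-fold), Mbd3 (1.47-fold), Mbd2 (1.42-fold) and Dnmt1 (1.31-fold) were higher in non-RGCs without overlap, whereas all 3 Tet genes and Dnmt3a overlapped. The share of all genes without overlap between the fractions was not counted, so no lean is read as particular to these genes.

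The RGC and non-RGC libraries formed separate clusters on the summed level of the cycling-cell genes. Correlations with that sum (Pearson r on log2 RPM) were therefore taken within each fraction, over 6 libraries that differ in genotype and depth. Among non-RGC libraries the sum rose as depth fell, from A to C, in mKO (2503, 2684 and 2916 RPM) and in WT (2668, 2715 and 3158 RPM). The correlations are descriptions only, and the parts of genotype and depth in them were not tested. Among non-RGC libraries Uhrf1 had an r of 0.94, Mbd3 of 0.79 and Dnmt1 of 0.65. Dnmt3b had -0.60, so that its higher level in the non-RGC fraction did not go with the sum among non-RGC libraries. Tet1 had -0.61, Tet2 -0.42, Dnmt3a -0.24, Tet3 0.21 and Mbd2 0.01. Among RGC libraries several of the values rested on WT RGC library C. With and without it the r was 0.88 and 0.44 for Uhrf1, 0.46 and -0.83 for Dnmt1, and 0.33 and -0.77 for Mbd3. For Dnmt3b it was 0.63 and 0.78, and for Dnmt3a -0.88 and -0.76, so these kept their sign. With so few libraries, no relation is read from the RGC libraries.

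**Figure D1:**
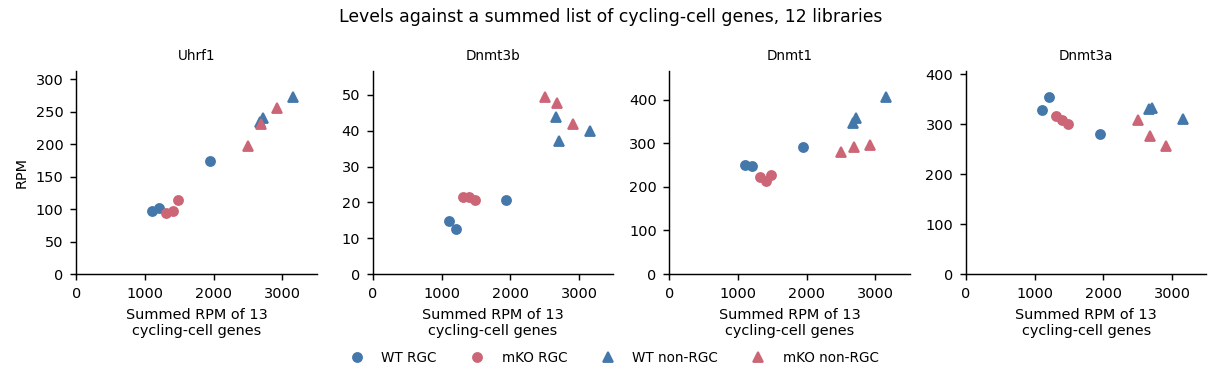
RPM of Uhrf1, Dnmt3b, Dnmt1 and Dnmt3a (vertical axes) against the summed RPM of 13 cycling-cell genes (horizontal axes) in the 12 libraries, with circles for RGC and triangles for non-RGC libraries, blue for WT and red for mKO. Uhrf1 spans 93.4 to 272 RPM and rises along the list among non-RGC libraries, and the blue circle at 1946 RPM is WT RGC library C.

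The genes whose pattern was most like that of each member over the 12 libraries were sought among 12607 genes averaging 5 RPM or more, by Pearson r on log2 RPM. As above, these libraries fall into clusters by fraction. For Uhrf1 they were Sapcd2 (r = 0.996), Racgap1 and Rcc1 (both r = 0.995), and for Dnmt3b Lhx9, Skp2 and Mcmbp (each r = 0.99). Dnmt1 was closest to Rnf166, Srebf1 and Raver1, and Mbd3 to Gnai2, Sf3b5 and Prcc (all r = 0.99). Mbd2 was closest to Prph2, Ass1 and Pkmyt1 (r from 0.98 to 0.99). For the Tet genes the closest were Brwd3 (r = 0.98 with Tet1), Atp7a (r = 0.96 with Tet2) and Med13l (r = 0.98 with Tet3), and for Dnmt3a the closest, Gbf1, reached 0.93.

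The comparison of mKO with WT RGCs asks what differed in these genes between ganglion cells of mKO and WT pups. The mKO pups carried the Math5-Cre knock-in and floxed alleles, and the WT label names neither. Effects of these alleles and of the Ezh2 deletion therefore cannot be told apart. The eraser Tet1 rose, and the maintenance methyltransferase Dnmt1 and the NuRD components Mbd2 and Mbd3 fell. The other 5 did not pass the test (limma on log2(normalized reads + 1), Benjamini-Hochberg over all genes tested, called at an adjusted p under 0.05). That is 1 of 9 called higher and 3 of 9 called lower, against 16.3% called higher and 21.2% called lower of the 16085 genes tested (2622 and 3405 genes). Scaled by total reads, the median log2 fold change of all genes was 0.12 and the split of calls turned to 3857 higher and 2238 lower, but the 4 members kept their calls and directions and Tet2 was added (0.46, adjusted p = 0.0374). All 9 members passed the filter of a mean of at least 10 normalized reads. The median log2 fold change of the members was -0.22, against -0.0024 over all genes with the authors' size factors. In the same comparison 6 of 10 retinal progenitor genes (between 977 and 1041 RPM summed in mKO, 1240 and 1937 in WT), 4 of 8 photoreceptor genes and 4 of 6 amacrine cell genes were called lower and 0 of 13 cycling-cell genes, and their part in the falls of Dnmt1, Mbd2 and Mbd3 was not tested.

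Mbd3 had 1503, 1552 and 1861 normalized reads in WT RGC libraries and 989, 1100 and 1002 in mKO RGC libraries. The groups did not overlap, the mKO values being the lower, and the log2 fold change was -0.66 (SE 0.0931, adjusted p = 0.00216), a 1.58-fold fall. Mbd2, which binds methylated CpG, had 802, 800 and 854 normalized reads in WT and 661, 621 and 596 in mKO, again without overlap (log2 fold change -0.39, SE 0.0670, adjusted p = 0.00470). For Dnmt1 the values were 3116, 3144 and 3591 in WT and 2424, 2593 and 2597 in mKO, a log2 fold change of -0.37 (SE 0.0708, adjusted p = 0.00702) with every mKO library the lower. All 3 falls were called without each library in turn, WT RGC library C included.

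Tet1 had 980, 1121 and 1002 normalized reads in WT RGC libraries and 1607, 1370 and 1589 in mKO RGC libraries. The groups did not overlap, the mKO values being the higher, and the log2 fold change was 0.56 (SE 0.0856, adjusted p = 0.00305), a 1.47-fold rise that was called without each library in turn. Tet2 had 1353, 1525 and 1032 in WT and 1575, 1486 and 1850 in mKO, with overlap between the groups (log2 fold change 0.34, SE 0.151, adjusted p = 0.117). Tet3 had 4370, 4779 and 4197 in WT and 3784, 3611 and 4099 in mKO, without overlap but short of the threshold (log2 fold change -0.22, SE 0.0730, adjusted p = 0.0549). Tet1 was thus the only eraser called in RGCs with the authors' size factors, and Tet3 had the opposite sign.

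Dnmt3a had 4102, 4489 and 3470 normalized reads in WT RGC libraries and 3508, 3436 and 3685 in mKO RGC libraries (log2 fold change -0.17, SE 0.0957, adjusted p = 0.191). Dnmt3b had 184, 158 and 256 in WT and 243, 235 and 252 in mKO (log2 fold change 0.31, SE 0.178, adjusted p = 0.207). Uhrf1 had 1217, 1294 and 2160 in WT and 1094, 1298 and 1089 in mKO (log2 fold change -0.38, SE 0.212, adjusted p = 0.2001). In each of these the last WT value, from library C, was outside the range of the other WT libraries, towards the level of the non-RGC fraction for Dnmt3b and Uhrf1. Without that library 7 members were called, with Dnmt3a (-0.28, adjusted p = 0.00385) and Tet3 (-0.26, adjusted p = 0.0128) lower and Dnmt3b (0.51, adjusted p = 0.00532) higher, while Uhrf1 changed by -0.12 (adjusted p = 0.260). Calls over all 16085 genes grew as well without it, from 2622 higher and 3405 lower to 3737 higher and 4463 lower. Dnmt3a and Dnmt3b each overlap an antisense gene, Dnmt3aos and Dnmt3bos, and the sources used here do not say whether reads were counted by strand. Tet3 has the longest such overlap (B230319C09Rik, opposite strand, 6568 bases) and also shares 3553 bases with 5430434F05Rik on its own strand, Tet1 shares 1871 bases with Gm48353 on its own strand, and Tet2 overlaps Gm42567 by 43 bases on the opposite strand. These are overlaps of whole gene spans, introns included, and overlap between exons was not checked. Where exons overlap, reads of a member and an overlapping gene cannot be told apart here.

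Counted by overlap instead of by the model, all mKO values lay above all WT values for 1 member (Tet1), against 24.8% of all genes, and below for 4 (Dnmt1, Tet3, Mbd2 and Mbd3), against 28.2%. An exact permutation test of 3 libraries against 3 cannot go below p = 0.1 and was not used for single members.

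**Figure D2:**
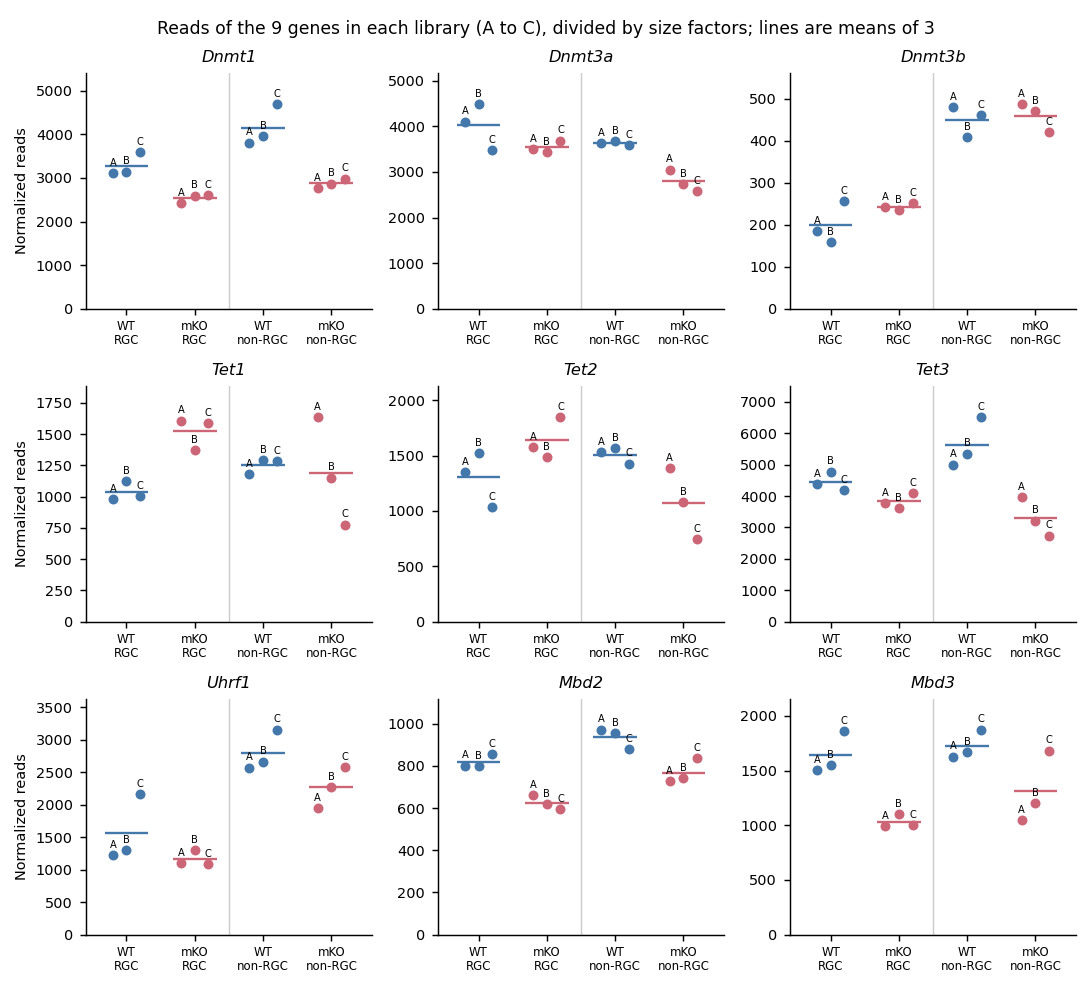
Normalized reads (vertical axes, from 0) of the 9 members in each of the 12 libraries, as points lettered A to C with lines at the means of 3, blue for WT and red for mKO, RGCs left and non-RGCs right in each panel. Tet1 is higher in all 3 mKO RGC libraries (1370 to 1607) than in WT (980 to 1121), and Uhrf1 shows WT RGC library C at 2160.

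The changes in RGCs ran along the base composition of the genes. All genes averaging 50 or more normalized reads were split into 5 groups by exon GC content. The median log2 fold change was 0.36 where GC was 33.0% to 43.7% and -0.45 where it was 55.2% to 73.7%. Tet1 (44.2% GC) and Tet2 (42.7%) are the members lowest in GC and had the largest positive log2 fold changes, and Mbd3 (63.1%) is the highest in GC and had the largest negative one. The trend at the GC content of Mbd3 came to -0.67. The remaining members lie between 51.6% (Mbd2) and 54.4% (Uhrf1), and of these Dnmt3b at 52.5% stood above the trend.

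After the trend of each library with exon GC content was removed, 1 member was called, Tet1 at 0.37 (SE 0.0842, adjusted p = 0.0337), against 5.13% of 15897 genes called higher and 9.01% called lower. Mbd3 then had a log2 fold change of 0.0011 (adjusted p = 0.994), Dnmt1 of -0.10 (adjusted p = 0.295), Tet3 of 0.03 and Mbd2 of -0.22 (adjusted p = 0.0561). With the trend of read density (reads per base of exon) removed as well, no member was called, against 2.26% of genes called higher and 4.23% called lower. Tet1 was then at 0.25 (SE 0.0853, unadjusted p = 0.0240, adjusted p = 0.135) and Mbd2 at -0.19 (unadjusted p = 0.0190, adjusted p = 0.119). Read density was included because duplicate reads had been removed from single-end data, which lowers the counts of densely covered genes, and Mbd3 was the most densely covered member at 0.756 reads per base in WT RGCs.

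**Figure D3:**
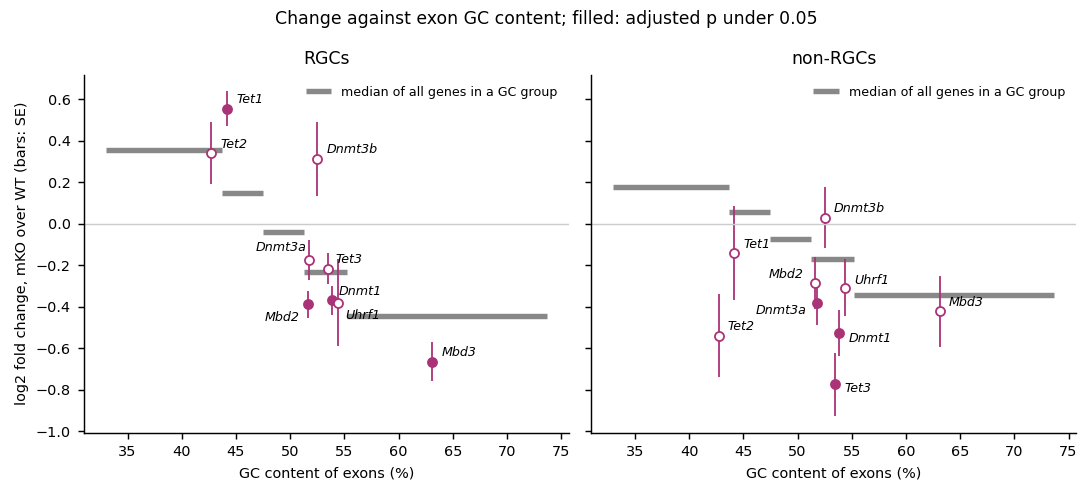
Log2 fold change, mKO over WT (vertical axis, points with SE bars, filled where the adjusted p was under 0.05), of the 9 members against the GC content of their exons in percent (horizontal axis), with grey bars for the median of all genes in 5 GC groups. In RGCs Tet2 sits near its bar and Tet1 (0.56) above its bar (0.15), Mbd3 lies at the high end, and in non-RGCs Tet2 and Tet3 lie below the bars at their GC content.

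The same comparison in non-RGCs asks what differed in the cells left over from the bead capture. The writers Dnmt1 and Dnmt3a and the eraser Tet3 fell, and no member rose. These were 3 of 9 called lower and 0 of 9 higher, against 6.43% called lower and 4.18% called higher of 15326 genes (985 and 641). Scaled by total reads the split was 453 lower and 1347 higher, with a median log2 fold change of 0.15 over all genes, and Dnmt1 and Tet3 were still called lower (-0.35 and -0.60). Without the mean-variance trend in limma the split was 370 lower and 543 higher. At an unadjusted p under 0.05, 0 members were higher. The median log2 fold change of the members was -0.38, against -0.0257 over all genes.

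Tet3 had 5000, 5350 and 6523 normalized reads in WT non-RGC libraries and 3960, 3221 and 2738 in mKO non-RGC libraries. The groups did not overlap, and the log2 fold change was -0.77 (SE 0.153, adjusted p = 0.0185), a 1.71-fold fall. Dnmt1 had 3807, 3961 and 4694 in WT and 2770, 2869 and 2981 in mKO, also without overlap (log2 fold change -0.53, SE 0.113, adjusted p = 0.0228). Dnmt3a had 3629, 3672 and 3587 in WT and 3051, 2734 and 2584 in mKO (log2 fold change -0.38, SE 0.105, adjusted p = 0.0467).

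The calls for Tet3 and Dnmt1 were lost without mKO non-RGC library B or without WT non-RGC library B, where 0 members were called, and the call for Dnmt3a was lost without any library but mKO non-RGC library A. Without mKO non-RGC library B, 47 genes in all were called higher and 92 lower. Limma without its mean-variance trend also called 0 members.

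Among the other members Tet2 had 1531, 1565 and 1427 normalized reads in WT non-RGC libraries and 1385, 1077 and 746 in mKO (log2 fold change -0.54, SE 0.2001, adjusted p = 0.107). Tet1 had 1182, 1293 and 1284 in WT and 1637, 1151 and 777 in mKO, so that the mKO libraries spanned the WT range on both sides (log2 fold change -0.14, SE 0.229, adjusted p = 0.710). In the shallowest library of the series, mKO non-RGC library C with 7139633 reads, each member was at an extreme of the mKO non-RGC group. All 3 Tet genes, Dnmt3a and Dnmt3b were at their lowest, and Mbd3, Mbd2, Uhrf1 and Dnmt1 at their highest.

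Mbd3 had 1627, 1672 and 1874 normalized reads in WT non-RGC libraries and 1050, 1204 and 1682 in mKO (log2 fold change -0.42, SE 0.172, adjusted p = 0.136). Uhrf1 had 2569, 2660 and 3153 in WT and 1945, 2275 and 2572 in mKO, touching at the edge (log2 fold change -0.31, SE 0.136, adjusted p = 0.164). Mbd2 had 972, 955 and 881 in WT and 728, 740 and 837 in mKO, without overlap (log2 fold change -0.29, SE 0.126, adjusted p = 0.163). Dnmt3b was level, with 481, 409 and 461 in WT and 488, 471 and 421 in mKO (log2 fold change 0.03, SE 0.146, adjusted p = 0.907).

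By overlap alone 5 members (Dnmt1, Dnmt3a, Tet2, Tet3 and Mbd2) had all mKO non-RGC values below all WT values, against 19.2% of genes, and 0 had every mKO library above, against 17.5%. The cycling-cell genes summed to between 2503 and 2916 RPM in mKO and between 2668 and 3158 in WT non-RGCs, with 1 of 13 called lower. The progenitor genes summed to between 1682 and 2054 RPM in mKO and between 2376 and 2720 in WT, with 2 of 10 called lower. Of all genes 6.43% were called lower and 4.18% higher. Of the RGC markers 8 of 12 were called higher and 0 lower in mKO non-RGCs, with the capture antigen Thy1 at 3.86 (limma adjusted p = 0.00480). Dnmt1 and Tet3 were themselves lower in WT RGCs than in WT non-RGCs (above). The part of these differences in the falls of Dnmt1 and Tet3 was not tested.

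GC content ran with the change in non-RGCs too, from a median log2 fold change of 0.18 in the lowest to -0.34 in the highest GC group, but less steeply. With that trend removed 0 members were called, against 0.904% of 15157 genes called higher and 0.607% called lower (137 and 92 genes), and with read density removed as well 0 members, against 0.884% in each direction. Tet3 was then at -0.60 (unadjusted p = 0.00604, adjusted p = 0.0872) and -0.55 (adjusted p = 0.123), Dnmt1 at -0.34 (adjusted p = 0.112) and -0.25, and Dnmt3a at -0.26 and -0.25. Tet2, which is low in GC, moved the other way, from -0.54 to -0.68 (adjusted p = 0.0803) and -0.76 (unadjusted p = 0.000988, adjusted p = 0.0517).

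**Figure D4:**
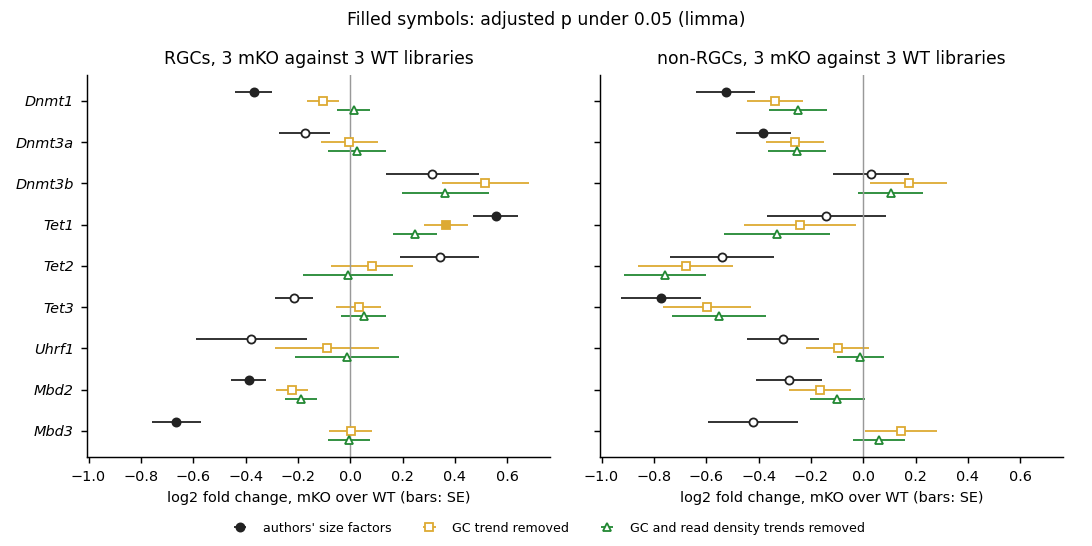
Log2 fold change, mKO over WT (horizontal axes, symbols with SE bars, filled where the adjusted p was under 0.05), of each member in RGCs and in non-RGCs, with the authors' size factors (circles), with the GC trend removed (squares) and with GC and read density trends removed (triangles). In RGCs Mbd3 goes from -0.66 to near 0, and in non-RGCs Tet2 goes from -0.54 to -0.76.

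Whether the genotype effect itself differed between the fractions was tested as an interaction over the 12 libraries and 14894 genes. No member was called by limma, against 0.107% of genes. At an unadjusted p under 0.05 there were 3 members, all Tet genes, and 1499 genes in all. By limma the effect in RGCs minus that in non-RGCs was 0.88 on the log2 scale for Tet2 (SE 0.274, unadjusted p = 0.00690, adjusted p = 0.409), 0.70 for Tet1 (SE 0.277, unadjusted p = 0.0260, adjusted p = 0.459) and 0.56 for Tet3 (SE 0.185, unadjusted p = 0.00993, adjusted p = 0.417). Without mKO non-RGC library A, the library with the highest Tet1 and Tet2 of its group, Tet1 (0.96, adjusted p = 0.0376) and Tet2 (1.09, adjusted p = 0.0453) were called. For Dnmt1 (0.16), Dnmt3a (0.21), Dnmt3b (0.28), Uhrf1 (-0.07), Mbd2 (-0.10) and Mbd3 (-0.24) the difference had an unadjusted p of at least 0.152, which does not show that the effects were alike.

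Genes that work with the members were grouped by role into lists of 55 genes, of which 53 passed the filter. In RGCs 6 were called higher and 18 lower, where 16.3% and 21.2% of all genes were. In non-RGCs 2 were called higher and 6 lower, where 4.18% and 6.43% of all genes were. The count of 24 in RGCs became 32 without WT RGC library C, where 3737 of all genes were called higher and 4463 lower. It became 12, 15 and 12 without mKO RGC libraries A, B and C, where 1502, 1518 and 1435 of all genes were called higher and 2305, 2511 and 2341 lower. The count of 8 in non-RGCs became 0 without library B of either genotype, 5 without mKO non-RGC library A and 4 without WT non-RGC library A. Without mKO non-RGC library B 47 of all genes were called higher and 92 lower, and without WT non-RGC library B 162 and 218. With the GC trend removed 12 were called in RGCs and 1 in non-RGCs. Of all genes 5.13% were then called higher and 9.01% lower in RGCs, and 0.904% and 0.607% in non-RGCs. The median log2 fold change of the 53 was -0.09 in RGCs and -0.13 in non-RGCs.

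Of 12 NuRD subunits 7 were called lower in RGCs and 0 higher, against 21.2% and 16.3% of all genes, and 12 had a negative log2 fold change (median -0.27). In non-RGCs 4 were called lower and 0 higher, against 6.43% and 4.18%, and 10 had a negative log2 fold change (median -0.26). With the GC trend removed 5 and 1 were called lower, and with both trends removed 2 and 1, when 6 of 12 lay above 0 in RGCs. Mta1, a scaffold subunit, fell in both, from 2307, 2192 and 2508 normalized reads in WT RGC libraries to 1447, 1553 and 1508 in mKO (log2 fold change -0.63, SE 0.0655, adjusted p = 0.000866) and by 0.54 on the log2 scale in non-RGCs (adjusted p = 0.0308). Chd4, the remodelling ATPase, had -0.35 in RGCs (adjusted p = 0.00540) and -0.53 in non-RGCs (adjusted p = 0.0276). With the GC trend removed neither was called (-0.09, adjusted p = 0.366, and -0.35, adjusted p = 0.109), and with both trends removed Chd4 was at 0.12 in RGCs. Mta1 was still called in RGCs with the GC trend removed (-0.23, adjusted p = 0.0359) but not in non-RGCs (-0.22) or with both trends removed (-0.06 in RGCs). Gatad2b, which links the MBD protein to the rest of the complex, fell in non-RGCs from 995, 990 and 1199 to 754, 591 and 401 (log2 fold change -0.91, SE 0.215, adjusted p = 0.0304) and was at -0.17 in RGCs (adjusted p = 0.144). In non-RGCs the calls of Mta1 and Gatad2b were each lost in 4 of 6 settings that left out 1 library, library B of either genotype among them. It was the only gene of these lists called in non-RGCs after the GC trend was removed (-1.02, adjusted p = 0.0444) and after both trends were removed (-1.13, adjusted p = 0.0278), when it was also called in RGCs (-0.51, adjusted p = 0.0237). The NuRD median in RGCs became -0.10 and 0.016 in those settings.

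Among the other genes grouped here as readers, 4 of 8 were called higher and 2 lower in RGCs, against 16.3% and 21.2% of all genes, and 1 higher and 2 lower in non-RGCs, against 4.18% and 6.43%. Not every gene of this group need bind methylated DNA. With the GC trend removed 1 was called higher and 0 lower in RGCs, against 5.13% and 9.01% of all genes, and 0 in non-RGCs. Mbd4, a glycosylase that binds methylated CpG, rose in RGCs (0.56, adjusted p = 0.00492) and in non-RGCs (0.64, adjusted p = 0.0443), and Mbd6 fell in both (-0.72, adjusted p = 0.000651, and -0.81, adjusted p = 0.0198). Zbtb4, a zinc finger protein that binds methylated DNA, fell in both as well (-0.33, adjusted p = 0.00622, and -0.78, adjusted p = 0.0409). The non-RGC calls of Mbd4 and Zbtb4 were each lost in 4 and that of Mbd6 in 3 of the 6 settings that left out 1 library, library B of either genotype again among them. Mbd1 was at -0.09 (adjusted p = 0.324) and -0.29 (adjusted p = 0.145). Mbd4 was called in RGCs with the GC trend removed (0.38, adjusted p = 0.0405), whereas Mbd6 went to -0.07 and Zbtb4 to -0.11. With both trends removed Mbd4 was not called (0.24, adjusted p = 0.153), and Zbtb33, which also binds methylated DNA, was the reader called in RGCs (0.27, adjusted p = 0.0238).

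Of 7 partners in maintenance, Hells, a chromatin remodeller needed for methylation of repeats, rose from 317, 345 and 584 normalized reads in WT RGC libraries to 675, 702 and 615 in mKO (log2 fold change 0.73, SE 0.219, adjusted p = 0.0370) and from 873, 936 and 881 to 1353, 1361 and 1189 in non-RGCs (0.53, adjusted p = 0.0254). Without WT RGC library C the rise in RGCs was 1.00 (adjusted p = 7.05e-05), but without any other RGC library it was not called (adjusted p up to 0.113). In non-RGCs the call was lost in 4 of 6 such settings, without library A or B of either genotype. In RGCs with the GC trend removed it was 0.29 and was not called (adjusted p = 0.403). The sliding clamp Pcna (-0.44, adjusted p = 0.0462) and Dmap1 (-0.28, adjusted p = 0.0242) fell in RGCs. With the GC trend removed Pcna was at -0.67 (adjusted p = 0.0251) and Dmap1 at 0.07 (adjusted p = 0.453). Uhrf2, the relative of Uhrf1, was at 0.09 in RGCs (adjusted p = 0.224) and 0.14 in non-RGCs (adjusted p = 0.555), and was called lower in RGCs with the GC trend removed (-0.23, adjusted p = 0.0406).

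Of 17 genes for removal and base excision repair, 16 were tested, of which 3 fell in RGCs, a share near the 21.2% of all genes called lower, and 0 passed in non-RGCs. With the GC trend removed 1 was called higher and 1 lower in RGCs, against 5.13% and 9.01% of all genes. The higher one was Gadd45b (0.66, adjusted p = 0.00731), also called with both trends removed (0.62, adjusted p = 0.0196). With the authors' size factors it was not called in RGCs (0.24, adjusted p = 0.0831) or non-RGCs (1.52, adjusted p = 0.0569). Tdg, the glycosylase that cuts out the products of the Tet enzymes, had 501, 546 and 600 normalized reads in WT RGC libraries and 413, 433 and 440 in mKO, without overlap (log2 fold change -0.35, SE 0.0867, adjusted p = 0.0182). It was called lower in RGCs with the GC trend removed (-0.43, adjusted p = 0.0197) and after removal of both trends (-0.52, adjusted p = 0.0226), but its call was lost without any 1 of the 3 mKO RGC libraries (adjusted p up to 0.0757). In non-RGCs it had 588, 578 and 764 in WT and 425, 434 and 503 in mKO (log2 fold change -0.49, SE 0.160, adjusted p = 0.0751). Xrcc1, a scaffold of base excision repair, fell in RGCs (-0.62, adjusted p = 0.00595) but was not called with the GC trend removed (-0.26, adjusted p = 0.130). Of the TET cofactors and partners 3 of 5, Idh1, Idh2 and Cxxc5, were called lower in RGCs, against 21.2% of all genes, and 0 in non-RGCs. The count in RGCs was 2 after GC correction, against 9.01% of all genes. Idh2 (-0.10) and Cxxc5 (-0.07) then lost their calls and Ogt gained one (-0.33, adjusted p = 0.0426). The count was 0 with both trends removed, when Cxxc5 lay at 0.07. Of the writers' relatives and the methyl donor pathway, Trdmt1, which methylates transfer RNA despite its kinship with the DNA methyltransferases, rose in RGCs (0.68, adjusted p = 0.00640), and Ahcy fell (-0.49, adjusted p = 0.0185). With the GC trend removed neither was called (0.32, adjusted p = 0.136, and -0.31, adjusted p = 0.113).

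Methylation itself was not measured. A list of 16 germline genes that promoter methylation normally keeps silent in somatic cells was followed, of which 4 passed the filter in RGCs and 2 in non-RGCs. By limma 0 of the 4 were called in RGCs, and 1 of the 2 was called higher in non-RGCs, where 4.18% of all genes were. Sums were taken in RPM. Scaled by total reads, the median log2 fold change of all genes was 0.12 in RGCs and 0.15 in non-RGCs. The list summed to between 29.1 and 30.6 RPM in mKO RGC libraries against 19.1 to 23.2 in WT, and to between 34.5 and 38.8 in mKO non-RGC libraries against 19.2 to 22.5 in WT. Most of that sum was Brdt, a testis bromodomain protein, which rose in non-RGCs from 211, 178 and 200 normalized reads to 304, 321 and 360 (log2 fold change 0.74, SE 0.167, adjusted p = 0.0264) and had 0.28 in RGCs (adjusted p = 0.0735). Its call was lost in 3 of 6 settings that left out 1 library, among them mKO non-RGC library B. With the GC trend removed Brdt was at 0.65 in non-RGCs (adjusted p = 0.0721). Ddx4 averaged 19.8 normalized reads in WT RGCs and 29.2 in mKO, and Tdrd1 31.8 and 24.8. In WT RGCs 9 of the 16 and in mKO RGCs 8 of the 16 stayed at or under 3 reads in every library.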

How the data were processed

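Poly-A RNA was sequenced single-end, and per the labels and the study's methods the authors aligned reads to mm10 with STAR 2.3.1z4, kept primary alignments, removed duplicates and counted reads per gene with featureCounts. The strand setting is not given in the sources used here. The deposited values are signal values, that is, mean reads per genotype divided by the authors' size factors. Further columns hold the authors' fold changes and p-values and were not used. Each library's reads were recovered from the 15-digit means. Exactly 1 combination was found for 100.0% of genes with reads, and a control with shifted steps gave 0. Libraries were rescaled by the same size factors, log2(value + 1) was taken, genes averaging 10 or more in either genotype were kept, and limma 3.58.1 (R 4.3.3) with a mean-variance trend and Benjamini-Hochberg adjustment was used, called at 0.05. The script recovered seeded changes on simulated data. The GC trend was removed by lowess (span 0.3), and GC and read density trends together by a median over the 300 genes nearest in both. Exons came from GENCODE M21. The members and lists were chosen with earlier results of these data known. Named pathway genes were those called with at least a 1.5-fold change plus fixed genes and others singled out after their values were seen. The values of 1 reader gene are not reported here.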

Additional observations from a re-analysis of the deposited data

How the results depend on the processing

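No paired analysis was possible because the recovered libraries carry no replicate number. Leaving out 1 library at a time gave 4 to 7 members called in RGCs, 0 to 4 in non-RGCs and 0 to 2 for the difference between fractions, and 12 to 32 and 0 to 8 genes of the pathway lists in RGCs and non-RGCs. With the GC trend removed 1 and 0 members and 12 and 1 pathway genes were called, and with GC and read density trends removed 0 and 0 members and 5 and 1 pathway genes. In non-RGCs limma without its mean-variance trend called 0 members and 0 pathway genes, and scaling by total reads 4 pathway genes. Among the members, Ezh2 and the pathway genes picked for this comparison, signs turned as follows, as log2 fold changes (turns of Chd4, Cxxc5 and Dmap1 stand in the report). In RGCs with the GC trend removed Tet3 was at 0.0324, Mbd3 at 0.0011, Ezh2 at -0.11 and Uhrf2 at -0.23, and with both removed Dnmt1 was at 0.0138, Dnmt3a at 0.0263, Tet2 at -0.0091, Tet3 at 0.0511, Ezh2 at -0.0572, Brdt at -0.0838 and Uhrf2 at -0.20. Scaling by total reads put Mbd1 at 0.0321 in RGCs and Tet1 at 0.0307 in non-RGCs. In non-RGCs Mbd3 was at 0.146 and 0.0611, Xrcc1 at 0.0274 and 0.0144 with GC and with both removed, and Uhrf2 at -0.0387 with GC removed. With 1 library left out, Dnmt3b ran from -0.0367 to 0.0928, Tet1 from -0.40 to 0.13 and Uhrf2 from -0.0176 to 0.24 in non-RGCs. The difference between fractions for Uhrf1 ran from -0.22 to 0.19 and was 0.0090 with GC removed. The cause was not tested. Correlations without WT RGC library C were added after seeing the data. Over single genes and settings, 740 values kept their direction and side of the threshold, 97 lost and 17 gained a call, and 25 turned sign. With 3 libraries a group, small changes of scarce genes such as Dnmt3b are poorly resolved.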
